A study of Mus musculus with 16 samples.

Results

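The regions described here are the open chromatin regions of mouse chromosome 14 in normal and SPOP-mutant prostate organoids. Peaks of 16 libraries were merged where they shared at least 1 bp, and regions called in at least 2 libraries were kept. That left 80352 regions, of which 2610 (3.25%) lie on chromosome 14, from position 6107565 to 124802288 of the mouse build mm10. The chromosome was selected on the readout itself, because SPOP-mutant libraries held fewer called regions there. The differences between genotypes are therefore given as a description, with no test, and only the effects of androgen are tested.

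The libraries came from prostate organoids, cultures that retain the epithelial cell types of the gland. These were either Control, described as normal, or SPOPmut, and both genotypes carried the same guide label, sgNT. Each genotype received 10 nM dihydrotestosterone (DHT) or ethanol (EtOH), the solvent, over 24 h in organoid medium lacking mEGF, which gave 4 groups of 4 libraries. The labels name neither the SPOP allele, nor what drives it, nor the animals or cultures behind each library. The p-values below therefore measure only the spread between these libraries, which may be technical.

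ATAC-seq uses a transposase that inserts adapters where DNA is not wrapped tightly, so its peaks mark promoters, enhancers and other accessible sites. SPOP picks the substrates of a ubiquitin ligase built on cullin 3 and is often mutated in prostate cancer. Its known substrates include the androgen receptor and several of its coactivators. DHT is the natural ligand that activates that receptor. Mouse chromosome 14 carries several genes with known roles in prostate epithelium or in growth control, among them Rb1, which encodes the retinoblastoma protein, the retinoic acid receptor gene Rarb, the transcription factor gene Klf5, and Zmiz1, which encodes a coregulator of the androgen receptor.

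Where a peak of a library's list overlaps a region, that library is said to have called it. The strength of a call is given as its percentile, the rank of the authors' signal for that peak within its own list, from 0 for the weakest to 100 for the strongest. A region is called lost when all 4 Control and no SPOPmut libraries of a treatment called it, and gained in the reverse case. Bulk libraries were measured, so fewer cells with an open site and less opening per cell cannot be told apart.

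The clearest sites where chromosome 14 differed at promoters are shown by sequence. RefSeq promoter windows, matched by position to 1358 windows of 1092 genes on the chromosome, overlapped a region at 358 genes, and at 303 of these the region was called in all 16 libraries. A promoter region of 10 genes was lost in both treatments and a promoter region of 2 was gained in both. The 3 lost promoters with the highest percentiles, apart from those of predicted genes, and both gained ones are printed below, over the 250 bases before the start of transcription, 5′ to 3′ on the gene's strand (RefSeq, GRCm38.p6). Capitals mark a match to 1 of 3 motifs searched on both strands, the AP-1 motif TGANTCA, the forkhead motif TGTTTAC and the androgen receptor motif AGAACA. Of all 32851 promoter windows, 6.75%, 3.17% and 16.1% held them in that order.

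Pcdh17: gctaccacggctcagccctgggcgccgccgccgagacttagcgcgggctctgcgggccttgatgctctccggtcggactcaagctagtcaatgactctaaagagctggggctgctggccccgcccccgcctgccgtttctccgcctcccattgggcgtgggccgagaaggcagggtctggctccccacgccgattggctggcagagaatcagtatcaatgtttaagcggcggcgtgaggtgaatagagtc
Emc9: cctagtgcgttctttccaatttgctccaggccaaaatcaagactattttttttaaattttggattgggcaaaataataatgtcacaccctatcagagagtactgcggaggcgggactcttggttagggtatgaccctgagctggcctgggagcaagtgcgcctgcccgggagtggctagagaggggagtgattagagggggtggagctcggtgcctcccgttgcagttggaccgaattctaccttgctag
Prxl2a: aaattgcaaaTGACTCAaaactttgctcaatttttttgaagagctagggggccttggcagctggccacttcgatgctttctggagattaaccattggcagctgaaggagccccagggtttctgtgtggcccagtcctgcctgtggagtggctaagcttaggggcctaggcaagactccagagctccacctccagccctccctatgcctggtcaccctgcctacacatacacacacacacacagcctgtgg
Peli2: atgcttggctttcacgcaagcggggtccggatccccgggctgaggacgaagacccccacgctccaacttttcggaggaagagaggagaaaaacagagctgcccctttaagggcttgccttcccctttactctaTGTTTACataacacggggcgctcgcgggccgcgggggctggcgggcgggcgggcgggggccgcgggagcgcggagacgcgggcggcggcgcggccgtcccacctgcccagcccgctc
Klhl1: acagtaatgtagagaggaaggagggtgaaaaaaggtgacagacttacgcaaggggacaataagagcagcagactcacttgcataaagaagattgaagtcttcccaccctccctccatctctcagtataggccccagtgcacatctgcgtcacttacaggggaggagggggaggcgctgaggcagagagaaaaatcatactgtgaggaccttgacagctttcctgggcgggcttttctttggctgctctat

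Pcdh17 encodes a protocadherin, a cell adhesion protein, and its printed window is chr14:84443313-84443562 on the plus strand. The region over it (84442612 to 84443904) lay at percentiles 74.4, 68.2, 78.7 and 73.6 in Control with EtOH and 69.9, 71.3, 73.1 and 71.1 with DHT, and no SPOPmut library called it. Emc9 (chr14:55585255-55585504, minus strand) encodes a subunit of the complex that inserts proteins into the endoplasmic reticulum membrane. Its region lay at percentiles of 55.4 to 67.1 in the 8 Control libraries and was called in no SPOPmut library. Prxl2a (chr14:41008246-41008495, minus strand), a peroxiredoxin-like gene, held the only AP-1 match of the 5, TGACTCA. Its region lay at 49.0 to 63.6 in Control with EtOH and at 15.8 to 38.9 with DHT. The window lies inside the gene body (40993735 to 41013833), so this start is not the outermost one of the gene. SPOPmut libraries still called 6 or 7 of the gene's 9 regions, and 1 was lost in both treatments.

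The gained promoters ran the other way. Peli2 (chr14:48120619-48120868, plus strand) encodes a ubiquitin ligase of Toll-like receptor signalling and held a forkhead match, TGTTTAC. Its region was called in no Control library and lay at percentiles 60.1, 50.6, 51.5 and 17.2 in SPOPmut with EtOH and 43.3, 48.9, 57.5 and 62.9 with DHT. Klhl1 (chr14:96519035-96519284, minus strand), a Kelch-like gene known from neurons, lay at mean percentiles of 31.4 in SPOPmut with EtOH and 50.8 with DHT, and was called in no Control library. A motif match here is a description of the letters, and no binding was measured.

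Every SPOPmut library placed a smaller share of its called regions on chromosome 14 than every Control library. The counts on the chromosome were 2114, 1812, 2082 and 2040 in Control with EtOH and 1770, 1637, 1832 and 1631 in SPOPmut with EtOH. With DHT they were 1918, 1836, 2023 and 1941 in Control and 1696, 1563, 1793 and 1874 in SPOPmut, so in each treatment the lowest Control count lay below the highest SPOPmut count. As a share of all called regions, which allows for list length, they did not overlap.

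That share was 3.43% ± 0.0338 in Control and 2.88% ± 0.0326 in SPOPmut with EtOH (SD, n = 4), and 3.36% ± 0.00845 and 2.86% ± 0.0383 with DHT. The ratio of SPOPmut to Control was 0.840 in EtOH and 0.851 in DHT. Control libraries called 77.1% (EtOH) and 73.9% (DHT) of the chromosome 14 regions and SPOPmut libraries 65.8% and 66.3%. Over all other chromosomes the same values were 72.8%, 71.3%, 74.4% and 75.5%. A region threshold of 2 libraries left out 245 regions of the chromosome called in 1 library, whose median percentile was 4.94, while the 140 regions called in exactly 2 had a median of 6.42.

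**Figure D1:**
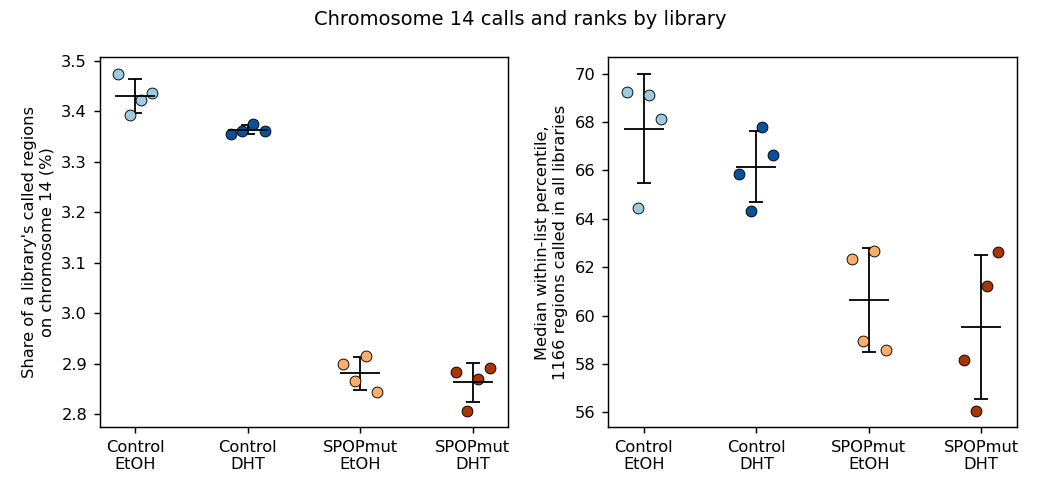
Share of each library's called regions that lie on chromosome 14 (percent) and the median percentile of its 1166 regions called in all libraries, by group. Points are libraries and bars are means with SD (n = 4), on axes that do not start at 0; SPOPmut shares lie from 2.81% to 2.92% and Control shares from 3.36% to 3.47%.

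Both lost and gained regions were found, with more lost than gained. In EtOH 208 regions (7.97%) were lost and 83 (3.18%) gained, where the figures for all chromosomes are 4.36% lost and 4.84% gained. In DHT 223 (8.54%) were lost and 104 (3.98%) gained, against 4.22% and 6.41% over all chromosomes. In both treatments 110 regions (4.21%) were lost and 44 (1.69%) gained, against 2.02% and 2.23%. Since the chromosome was chosen for this contrast, nothing is read from the difference to those percentages.

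The strongest of the lost regions lay inside Gpc6, a glypican gene, at 116925116 to 116927214, with percentiles of 82.2 to 92.5 in the 8 Control libraries. The next was at 76278686 to 76279866 with no protein-coding gene within 100 kb (79.0 to 85.6), followed by 118473474 to 118474840, 8535 bp from the drug and nucleotide exporter gene Abcc4 (67.3 to 87.6). None of these 3 was called in any SPOPmut library. The strongest gained regions were next to Adam28, described below, at 34141660 to 34143069 beside Npy4r, a pancreatic polypeptide receptor gene (64.3 to 76.0 in the 8 SPOPmut libraries), and at 99561197 to 99562140 with no gene within 100 kb (52.7 to 74.6).

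Such strong sites were the exception. Where they were called, regions lost in both treatments had a median percentile of 36.6 and regions gained in both one of 40.9. Regions within 1 kb of a gene end were lost in both treatments in 6 of 373 cases (1.61%), those inside a gene body in 56 of 1153 (4.86%) and those outside in 48 of 1084 (4.43%). On other chromosomes those shares were 1.28%, 1.90% and 2.22%. The gained ones numbered 4 (1.07%), 24 (2.08%) and 16 (1.48%) in that order, where other chromosomes had 0.846%, 2.49% and 2.48%.

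Regions that every library called were also ranked lower in SPOPmut. On chromosome 14 there were 1166 of them (44.7%, against 48.9% over all chromosomes), and their median percentile was 67.7 ± 2.25 in Control and 60.6 ± 2.16 in SPOPmut with EtOH, and 66.1 ± 1.47 and 59.5 ± 2.96 with DHT (SD, n = 4). Other chromosomes together stood at 66.8, 65.6, 67.7 and 66.9 in Control with EtOH and DHT and SPOPmut with EtOH and DHT. The median shift per region, SPOPmut minus Control, was -6.47 percentile points in EtOH (quartiles -11.8 and -2.31) and -5.75 in DHT (-11.9 and -1.23). In EtOH 968 of the 1166 regions shifted down, and in DHT 923. Of 20 chromosomes with enough such regions chromosome 14 had the lowest median, followed by chromosome 4 (-4.25 and -4.06) and chromosome 13 (-3.74 and -3.45). The highest medians, on chromosomes 2 (7.64 in EtOH and 7.79 in DHT) and 15 (7.19 and 7.07), were larger in size. Whole-chromosome shifts were thus not particular to chromosome 14, and percentiles within a list are relative to the other chromosomes.

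Seen by library, each of the 8 SPOPmut libraries lay below the Control mean of its treatment. The median shifts were -4.13, -8.19, -3.99 and -8.36 in EtOH and -7.05, -8.86, -4.24 and -2.61 in DHT. Single Control libraries set against the other 3 of their group gave -3.03 to 1.77. The lowest of these was Control EtOH library 2, which stood as low on other chromosomes (-2.85), and the DHT Controls spanned -1.75 to 1.77. The smallest SPOPmut shift, that of DHT library 4, lay below the DHT Controls, and on other chromosomes that library stood at 2.54. In EtOH 579 regions (49.7%) had all 4 SPOPmut percentiles below all 4 Control ones and 62 (5.32%) the reverse. Over all chromosomes those shares are 22.6% and 24.6%. In DHT there were 548 (47.0%) and 77 (6.60%), against 23.2% and 25.5%, and in both treatments 450 (38.6%) and 43 (3.69%), against 17.2% and 18.7%.

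The shift was also described by where a region stood in the Control lists. It was -7.79 in EtOH and -7.17 in DHT for the 434 regions with Control percentiles of 50 to 75, and -4.06 and -4.17 for the 147 above 90. The 32 regions below 25 moved up slightly (0.600 and 4.16), and on other chromosomes that lowest class moved up further (7.96 and 7.28). Other chromosomes stood at 0.0959 and 0.580 for 50 to 75 and at -0.351 and -0.335 above 90. In every class the shift on chromosome 14 was the lower one. The same Control percentiles set the classes and are subtracted in the shift, on a bounded scale. A dependence on Control rank can arise from that alone, so none is read from these classes. By location the shifts were -6.5 near gene ends, -6.43 inside genes and -6.34 outside in EtOH, and -4.93, -5.97 and -7.34 in DHT.

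Single regions moved far more than the chromosome. The region inside Rarb at 16483293 to 16484648 went from percentiles of 87.3 and 87.9 in Control to 32.0 and 27.6 in SPOPmut (EtOH and DHT, a shift of -55.2 and -60.3). Regions inside Gfra2, a receptor gene for the GDNF family of ligands, and Fgf9, a growth factor gene, shifted by -60.6 and -53.4 and by -51.3 and -48.2. In the other direction stood a region inside Uggt2 (46.9 and 38.9), whose protein checks the folding of glycoproteins, and one 3751 bp from the death receptor gene Tnfrsf10b (32.0 and 53.2). These 5 were named after their values were seen.

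The shift ran along the whole chromosome, with differences in size between neighbouring stretches. In 24 bins of 5 Mb the median rank shift was negative in every bin in both treatments, and in the 17 bins with at least 20 regions called by all libraries it lay between -9.41 and -4.13 in EtOH and between -9.19 and -3.18 in DHT. Over the 12 bins of 10 Mb with as many regions the limits were -9.30 and -4.33 in EtOH and -8.64 and -3.22 in DHT. The mean number of called regions was lower in SPOPmut in 22 of 24 bins of 5 Mb in each treatment. In 11 bins in EtOH and 9 in DHT every SPOPmut count lay below every Control count, against 13.7% and 11% of bins over the genome, and in 0 and 1 bins above, against 20.4% and 24.2%.

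The stretch from 80000001 to 95000000 held few regions and had the lowest ratios of called ones. Its first 5 Mb bin, with 12 regions, had ratios of SPOPmut to Control of 0.405 in EtOH and 0.371 in DHT, the next, with 28 regions, 0.474 and 0.641, and the last, with 7 regions, 0.2 and 0.222. In EtOH the bin from 110000001 to 115000000 followed (0.493, with 0.729 in DHT, 24 regions). In DHT it was the bin from 35000001 to 40000000 that followed (0.7, with 0.747 in EtOH, 23 regions). On these small counts a few regions decide the ratio. The bin from 60000001 to 65000000 had 171 regions and ratios of 0.707 in EtOH (123 to 145 called in Control, 89 to 102 in SPOPmut) and 0.776 in DHT (119 to 137 and 90 to 106).

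Against that run stood the bin from 40000001 to 45000000. It held 47 regions, and its ratios were 1.14 in EtOH (27 to 29 called in Control, 29 to 36 in SPOPmut) and 1.33 in DHT (24 to 29 and 30 to 40). Only in DHT did the counts not overlap. The ranks of its 19 regions called in all libraries nevertheless shifted down (-6.32 in EtOH). The bin from 20000001 to 25000000, with 188 regions, stood at 1.03 and 0.950.

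**Figure D2:**
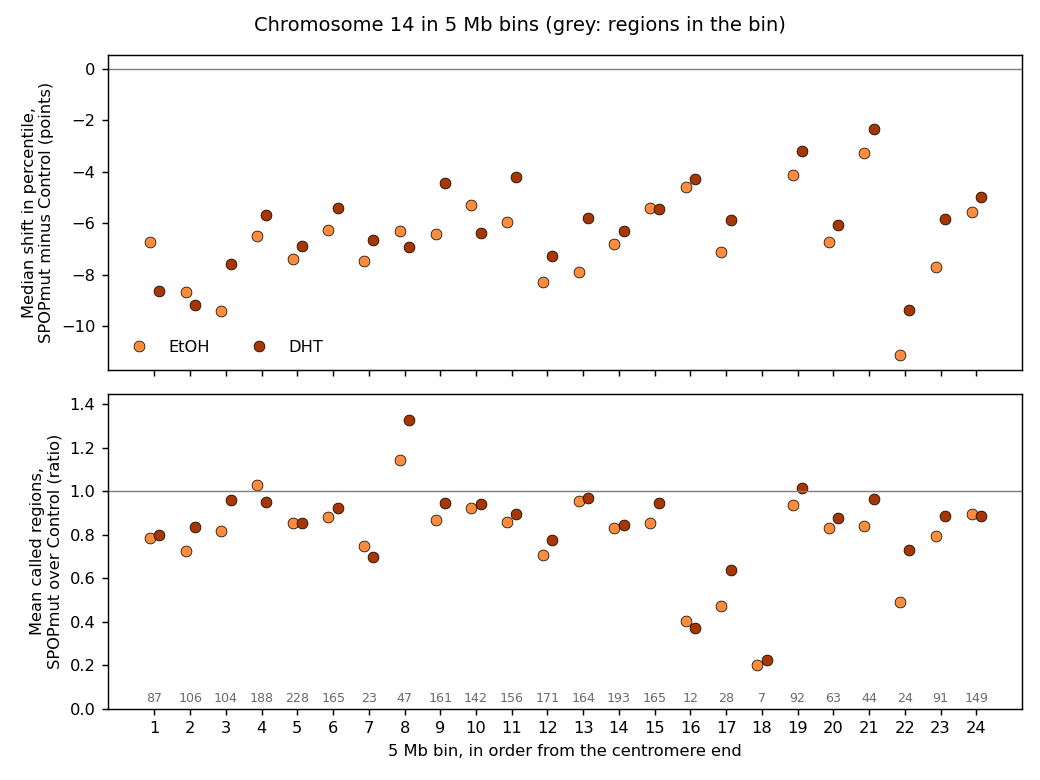
Chromosome 14 in 24 bins of 5 Mb in order from the centromere end, with the median rank shift in percentile points (top) and the ratio of mean called regions, SPOPmut over Control (bottom), for EtOH and DHT, and the number of regions per bin in grey. The shifts drawn all lie below 0 (bin 18, with 1 region called in all libraries, is not drawn there), and bin 8 has ratios of 1.14 and 1.33.

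Splitting the rank shifts by least squares into stretches of at least 20 regions gave 3 segments, with the same borders in EtOH and DHT. The first, 6107565 to 21548509 (155 regions), had a mean shift of -9.59 ± 12 in EtOH and -9.01 ± 12.4 in DHT (SD over regions). The last, 24244226 to 124802288 (990 regions), had -6.80 ± 10.4 and -6.23 ± 11.9. Between them lay 21 regions, from 21549694 to 24207772, with mean shifts of 6.08 ± 15.3 and 6.41 ± 14. The medians of that short segment were -0.853 and 0.375, so a part of its regions carried the mean.

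Over single SPOPmut libraries the segmentation was less regular. Libraries 1, 3 and 4 in EtOH gave the same 3 segments and library 2 nearly the same, whereas the DHT libraries gave 2, 5, 1 and 2 segments. The number of segments also depended on their smallest allowed size, with 2 at a minimum of 40 regions. Segmenting the called share in place of the rank gave 11 segments in EtOH and 5 in DHT. In EtOH it set apart a stretch of 33 regions at 12591817 to 13994709, over Cadps and Synpr, with 67.4 percentage points fewer SPOPmut than Control libraries calling a region. It also set apart 20 regions from 22759704 to 24273885, with 60.0 points more, and 21 regions from 43821967 to 44503587, with 41.7 points more. In DHT the first and second of these were not set apart. There the stretches with more SPOPmut calls were 21 regions from 17681221 to 18462868 (46.4 points) and 31 from 43821967 to 45179750 (50 points).

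At the level of genes, regions were assigned to the nearest protein-coding gene body within 100 kb, which assigned 2324 of the 2610 regions. Of 359 genes with at least 2 regions, 217 had a lower mean number of called regions in SPOPmut, 93 a higher one and 49 the same, averaged over treatments. In 38 genes (10.6%) all SPOPmut libraries lay below all Control libraries in both treatments, and in 13 (3.62%) above. Over the 11212 genes of all chromosomes those shares are 4.66% and 7.89%. The median change was -0.375 called regions on chromosome 14 and 0 over all chromosomes.

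Zmiz1 (25457875 to 25666743) had the largest difference downward when regions up to 100 kb away were counted. Of its 41 regions, 35, 34, 36 and 35 were called in Control with EtOH and 26, 27, 28 and 25 in SPOPmut. With DHT the counts were 37, 36, 37 and 36 against 27, 24, 29 and 29. The groups did not overlap, the mean difference was -8.88 called regions, and 3 of its regions were lost in both treatments while 21 were called in every library. The difference was -4.38 within 25 kb and -4.0 within 10 kb of the gene body, and with the stricter overlap that of Rarb was larger (-12.4, against -10.9).

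Rarb (16430839 to 17082331), whose receptor binds retinoic acid and is often silenced in epithelial cancers, differed by -8.75 of 32 regions. Control libraries called 27, 24, 27 and 27 with EtOH and 21, 20, 21 and 20 with DHT, and SPOPmut libraries 16, 17, 16 and 15 and then 13, 12, 13 and 15. Here both genotype and DHT stood lower, and 7 regions were lost in both treatments.

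At Wdfy2 (62837661 to 62961509), an endosomal protein gene, Control libraries called 16, 13, 14 and 15 of 17 regions with EtOH and 14 in each with DHT. SPOPmut libraries called 6 in each with EtOH and 9, 7, 9 and 8 with DHT. The strongest region lost in both treatments there, 62940265 to 62941021, stood at mean percentiles of 62.1 and 61.9 in Control.

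Neighbouring Cadps and Synpr, which encode proteins of dense-core and synaptic vesicles, were both low. Cadps (12372560 to 12823339, 14 regions) had 13 or 14 called in Control with EtOH and 10 to 12 with DHT, against 2 to 6 and 5 to 7 in SPOPmut. Synpr (13284780 to 13615469, 10 regions) had 8, 6, 8 and 9 and then 6 in each Control library with DHT, and 0 in all 8 SPOPmut libraries. A run of 7 neighbouring lost regions, the longest on the chromosome, covers Synpr from 13361258 to 13598367.

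Other genes that the rule names for a lower count were Serp2 (a mean difference of -5.12 of 24 regions), whose protein guards against endoplasmic reticulum stress, the predicted gene Gm4606 (-4.25 of 13), the formin gene Diaph3 (-4.12 of 10) and the nuclear import receptor gene Ipo5 (-3.75 of 8). In each the SPOPmut libraries lay below all Control libraries in both treatments. Counting only regions within 25 kb gave -2.5 at Serp2, -1.0 at Gm4606 and -2.0 at Ipo5, and within 10 kb of the gene body Gm4606 stood at -0.5. With stronger peaks alone Serp2 stood at -2.62 and Synpr at -3.75. In all, 18 runs of 3 or more neighbouring regions were lost in either treatment, and 8 such runs were gained.

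**Figure D3:**
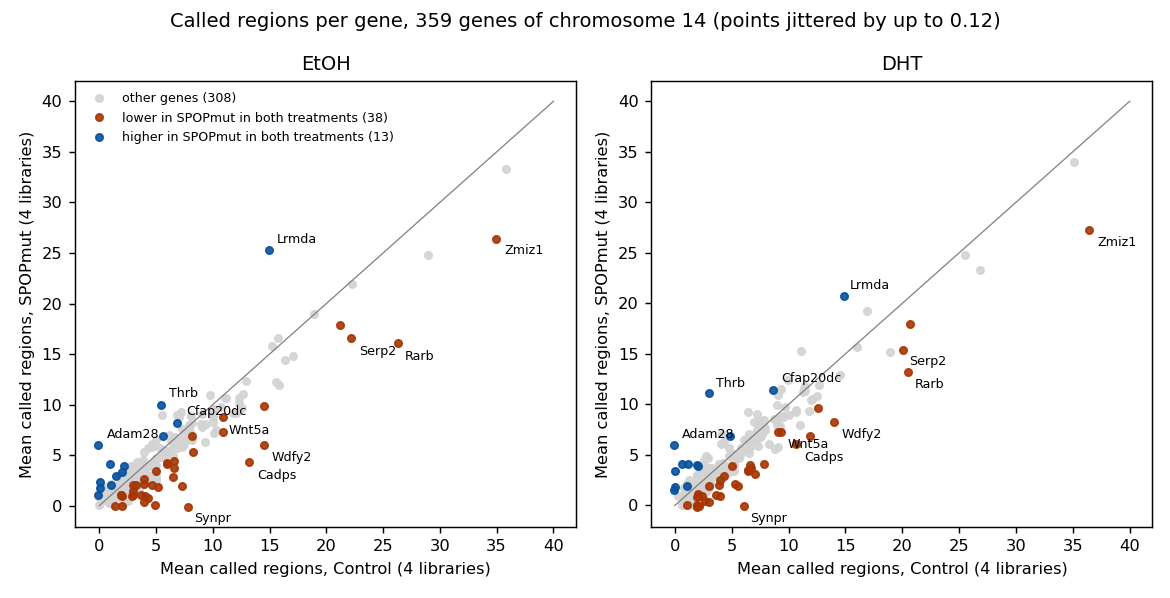
Mean called regions per gene in SPOPmut against Control for the 359 genes, in EtOH (left) and DHT (right), each mean over 4 libraries, with points jittered by up to 0.12. Coloured points are the 38 genes lower and 13 higher in every SPOPmut library in both treatments; Zmiz1, Rarb and Synpr lie below the line of equal values and Lrmda, Thrb and Adam28 above it in both panels.

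The longest gained run lay at Adam28, which encodes a membrane-bound metalloprotease-disintegrin. All 6 regions assigned to it, over 49451 bp from 68646850 to 68696300, were called in none of the 8 Control libraries and in each of the 8 SPOPmut libraries. The strongest, 68660811 to 68662106, lies 5570 bp from the gene body (68604998 to 68655889). Its percentiles were 79.6, 77.9, 80.6 and 81.8 in SPOPmut with EtOH and 72.0, 68.7, 76.6 and 78.1 with DHT. The region at the gene end, 68655550 to 68656153, stood at 35.6 to 45.6. With stronger peaks alone the difference at Adam28 was 3.0 called regions. Its neighbours in the list of metalloproteases, Bmp1 and Loxl2, had lower means in SPOPmut (differences of -1.0 and -0.875 called regions).

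Lrmda (22019504 to 23056093), a leucine-rich repeat gene of melanocyte differentiation, differed upward by 8.12 of 36 regions, and by 4.75 when the weakest peaks were left out. Control libraries called 16, 12, 16 and 16 with EtOH and 13, 15, 16 and 15 with DHT. SPOPmut libraries called 27, 24, 28 and 22 and then 21, 17, 21 and 24. A run of 5 gained regions lies inside it at 22812788 to 22823388, 4 of which were gained in both treatments. The gene falls in the short segment where ranks were not lowered.

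Thrb (17659225 to 18040097), which encodes a thyroid hormone receptor, is the neighbour of Rarb and went against it. Of 15 regions, Control libraries called 7, 3, 6 and 6 with EtOH and 3, 2, 3 and 4 with DHT, and SPOPmut libraries 12, 9, 11 and 8 and then 10, 10, 11 and 13. Its 5 regions gained in both treatments included 17719356 to 17720092, at mean percentiles of 62.7 and 62.6 in SPOPmut. The region that overlaps its promoter (17659025 to 17661438) was called in all 16 libraries and is not one of the 15, being assigned to a gene model that overlaps it too.

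A further group lay in the cluster of Ear and Ang genes, ribonucleases that include eosinophil-associated proteins and angiogenins. Ear1, Ear10, Ang6 and Ear2 form a run of 4 neighbouring genes with higher means in SPOPmut. At Ang6, 1 region of 4 was called in each Control library with EtOH and 0 or 1 with DHT, against all 4 in each SPOPmut library. At Ear2 the 8 Control libraries called 0 of 5 regions and SPOPmut libraries 2 to 5. With stronger peaks alone the difference at Ear2 was 0.875, against 3.0. Elsewhere on the chromosome Ear6 was higher by 1.75 of 7 and Rnase2b by 1.25 of 4, while near them Ear14 did not differ (0 of 2) and Ang and Rnase2a had differences of -0.875 and -0.125. Several of these genes have close copies, although sequence identity was not measured here. How reads that fit several copies were placed is not given in the sources used here, so the values of these genes are uncertain.

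Smaller differences upward were found at Oit1 (2.12 of 5 regions), Cfap20dc (2.0 of 14), Npy4r (1.88 of 5) and the axonemal dynein gene Dnah12 (1.62 of 2). Oit1 and Cfap20dc form a run with the fragile-site gene Fhit (0.625), and Dnah12 one with Dennd6a (0.375) and the trafficking GTPase gene Arf4 (0.25). The last run, Ggact (0.625), Tmtc4 (2.62) and the sodium leak channel gene Nalcn (1.38), lies at the far end of the chromosome. Cfap20dc stood at 0 with stronger peaks alone, 0.5 with the stricter overlap and 0.625 at equal list length, where Arf4 went to -0.125. Tmtc4 stood at 1.0 under both narrower assignments. For Nalcn the sign turned to -0.375 when counting was limited to 25 kb from the gene, or to its body and 10 kb either side.

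**Figure D4:**
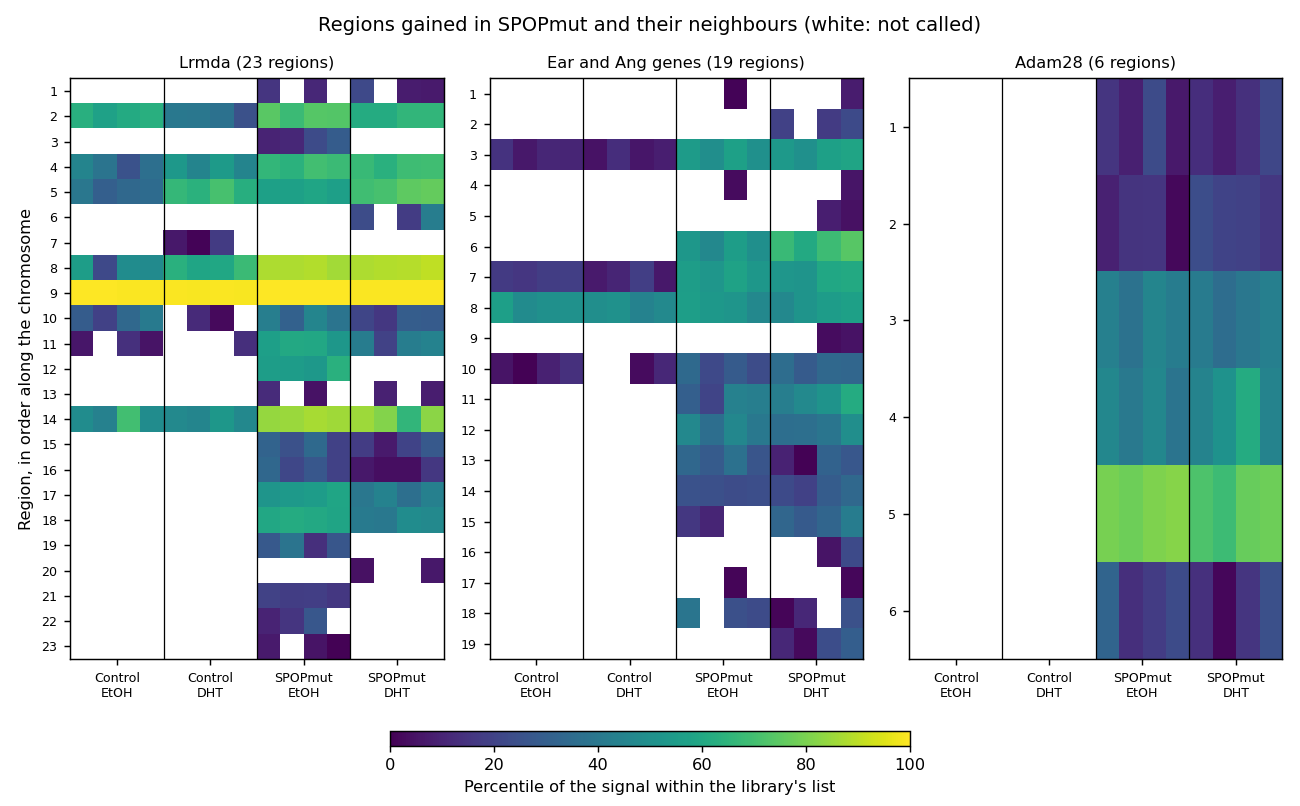
Percentile of the signal of each region (rows, in order along the chromosome) in each library (columns, by group) in a stretch of Lrmda, at the Ear and Ang genes and at Adam28. White cells were not called; the 6 Adam28 regions are white in the 8 Control libraries and filled in the 8 SPOPmut libraries.

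Gene lists give the same counts by known role. They hold 109 genes, of which 108 lie on chromosome 14 and 56 had at least 2 regions. In the list of prostate epithelium and hormone genes, 4 of 7 tested genes had lower means in SPOPmut, 2 higher and 1 the same (median -0.625, against -0.375 for the chromosome and 0 for all). Besides Zmiz1 these included Scel, which encodes the cornified-envelope protein sciellin (8 or 9 of 9 in Control with EtOH, 5 or 6 in SPOPmut; the difference of -3.38 was -0.75 within 10 kb of the gene body), and Klf5, a zinc finger factor of epithelial growth. At Klf5 Control libraries called 14, 11, 13 and 12 of 15 regions and SPOPmut libraries 10, 9, 10 and 10 with EtOH. With DHT the values met, at 12, 14, 12 and 13 against 12 in each. Msmb had no assigned region and was not analysed here.

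Among growth and patterning signals 7 of 10 were lower and 3 higher (median -0.938). Wnt5a, a ligand of non-canonical Wnt signalling, had 11, 10, 11 and 11 of 11 regions called in Control with EtOH and 8, 9, 9 and 9 in SPOPmut, and 9, 9, 10 and 9 against 7, 8, 7 and 7 with DHT. Its difference of -2.0 was -1.0 within 25 kb and -0.5 within 10 kb of the gene body. Bmp4, a bone morphogenetic protein gene, had both of its 2 regions called in the 8 Control libraries, 1 in each SPOPmut library with EtOH and 0 with DHT. The region inside it, 46386855 to 46388109, stood at mean percentiles of 71.3 and 70.0 in Control. Tnfrsf19 and Nrg3, which encodes a neuregulin, had lower means too (-1.5 and -1.0), with 0 at Tnfrsf19 when only stronger peaks were used.

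Of 3 tumour suppressor genes tested, 2 had lower means and Tnfrsf10b had both regions called in all 16 libraries. Rb1 had 8, 8, 8 and 9 of 11 regions called in Control with EtOH and 7 in each SPOPmut library, and 9 in each Control library against 7, 7, 7 and 8 with DHT. Lats2, a kinase of the Hippo pathway, was lower by -0.875 of 3. In the adhesion and cytoskeleton list 8 of 10 were lower (median -1.0), among them Pcdh17 with 2 regions in each Control and 0 in each SPOPmut library, Diaph3 and the connexin gene Gjb6.

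The other lists showed the same mix. Transcription factors were lower in 4 of 6 (Elf1 by -1.62 and Tsc22d1 by -1.38 among them, and Erc2, which sits in that list although it encodes a presynaptic scaffold). Ion channel and large neuronal genes were lower in 5 of 8, such as Cacna1d, a calcium channel gene (-1.75). Of 3 muscle, neural, immune and pigment genes, the melanin synthesis gene Dct had between 3 and 5 called regions in each Control library and 1 in every SPOPmut library. Nefl, a neurofilament gene, was lower (-1.38) and Cysltr2, a leukotriene receptor gene, higher (0.375). Of 5 housekeeping genes 4 were lower, such as the mitochondrial channel gene Vdac2 (-1.62 of 3), and the proteasome gene Psmc6 had its 2 regions called in all libraries. The lists were drawn up with results of these data known, so their directions are no independent evidence.

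The share of chromosome 14 changed little with androgen and did not pass its test. With DHT minus EtOH it differed by -0.0426 percentage points over both genotypes, with an exact permutation p of 0.0233 and an adjusted p of 0.0698 over 21 chromosomes, of which 28.6% passed. The change did pass without Control EtOH library 2 (adjusted p = 0.0465, exact permutation test) or SPOPmut EtOH library 4 (0.0220). Subtracting the DHT change of Control from that of SPOPmut left 0.05 percentage points (exact permutation p = 0.206, adjusted p = 0.333).

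Single regions did respond. DHT raised 30 regions of chromosome 14 (1.15%, against 1.51% over all chromosomes) and lowered 2 (0.0766%, against 0.259%) by an exact stratified permutation test with an adjusted p of 0.0231. Each had the smallest p the test can give, 0.000408, and was called in all 8 libraries of one treatment and none of the other, so all 4 libraries of each genotype show it. The strongest lay at 56337428 to 56338682, 26614 bp from the proton pump gene Atp12a, where Control libraries with DHT placed it at percentiles 86.3, 83.9, 86.9 and 85.7 and SPOPmut ones at 79.4, 79.2, 79.9 and 82.0. A region inside the zinc transporter gene Slc39a14 (70331218 to 70332079) stood at mean percentiles of 82.5 and 74.6.

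Others belonged to genes already named. A region inside Zmiz1 (25515837 to 25516468; mean percentiles 50.9 in Control and 51.2 in SPOPmut) and one 40570 bp from Klf5 (99353481 to 99354482; 60.0 and 65.3) were called only with DHT, as were 3 inside Nalcn and 2 inside Cfap20dc. Further ones lay inside Pibf1 (72.4 and 65.8) and 1768 bp from Ero1a (56.8 and 68.6), whose enzyme forms disulfide bonds in the endoplasmic reticulum. The 2 regions called only with EtOH lay inside Ccser2 (28.2 and 18.1) and beside Ear14 (15.7 and 18.6). The last is a ribonuclease gene with close copies.

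By gene, the number of called regions rose with DHT in 9 of 359 genes (2.51%, against 5.41% over all chromosomes) and fell in 12 (3.34%, against 3.14%), by exact permutation tests adjusted over 11212 genes. The split depended on the scaling. At equal list length 23 rose and 16 fell, and when genes were compared by their share of a library's calls 34 rose and 26 fell. For 0 genes, on the chromosome or elsewhere (0%), did the DHT change differ between genotypes (exact permutation test, smallest adjusted p on the chromosome 0.477). At an unadjusted p under 0.05 there were 18 such genes of 359 on the chromosome and 799 of 11212 in all. Chance alone gives an expected share of up to 0.05 at that threshold, so nothing is read from the 18.

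Nalcn rose most, by 4.62 called regions. Its counts were 7, 6, 6 and 7 with EtOH and 10 in each library with DHT in Control, and 7, 6, 7 and 7 and then 12, 12, 13 and 13 in SPOPmut (adjusted p = 0.0119, exact permutation test). Cfap20dc rose by 2.5 (7 in each to 8 or 9 in Control, and 8 or 9 to between 10 and 12 in SPOPmut), and Nufip1, an RNA-binding protein gene, by 2.38. The chromatin remodeller gene Chd8 went from 4, 3, 4 and 2 to 5 in each Control library and from 2 in each to 4, 3, 4 and 5 in SPOPmut. Atp12a rose by 1.75 (adjusted p = 0.0288, exact permutation test) and the actin-associated gene Pdlim2 by 1.12.

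Rarb fell most with DHT, by 4.25 called regions (adjusted p = 0.0206, exact permutation test). The fall was 5.75 in Control and 2.75 in SPOPmut, and the difference did not pass (exact permutation p = 0.304, unadjusted). Pebp4 (-3.88 of 19 regions), Tmtc4 (-3.38 of 9), the calcium channel subunit gene Cacna2d3 (-3.12 of 24), the bicarbonate transporter gene Slc4a7 (-2.88 of 12) and Erc2 (-2.62 of 18) fell as well. Of the 56 tested genes of the lists 0 rose and 5 fell, namely Rarb, Cacna2d3, Erc2, Wnt5a and Tkt. Over all 11212 genes 5.41% rose and 3.14% fell. The lists were drawn up with results of these data known, so nothing is read from their count. Wnt5a fell by 1.5 (adjusted p = 0.0288, exact permutation test), in both genotypes alike, and the pentose phosphate enzyme gene Tkt by 1.38 (0.0321).

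**Figure D5:**
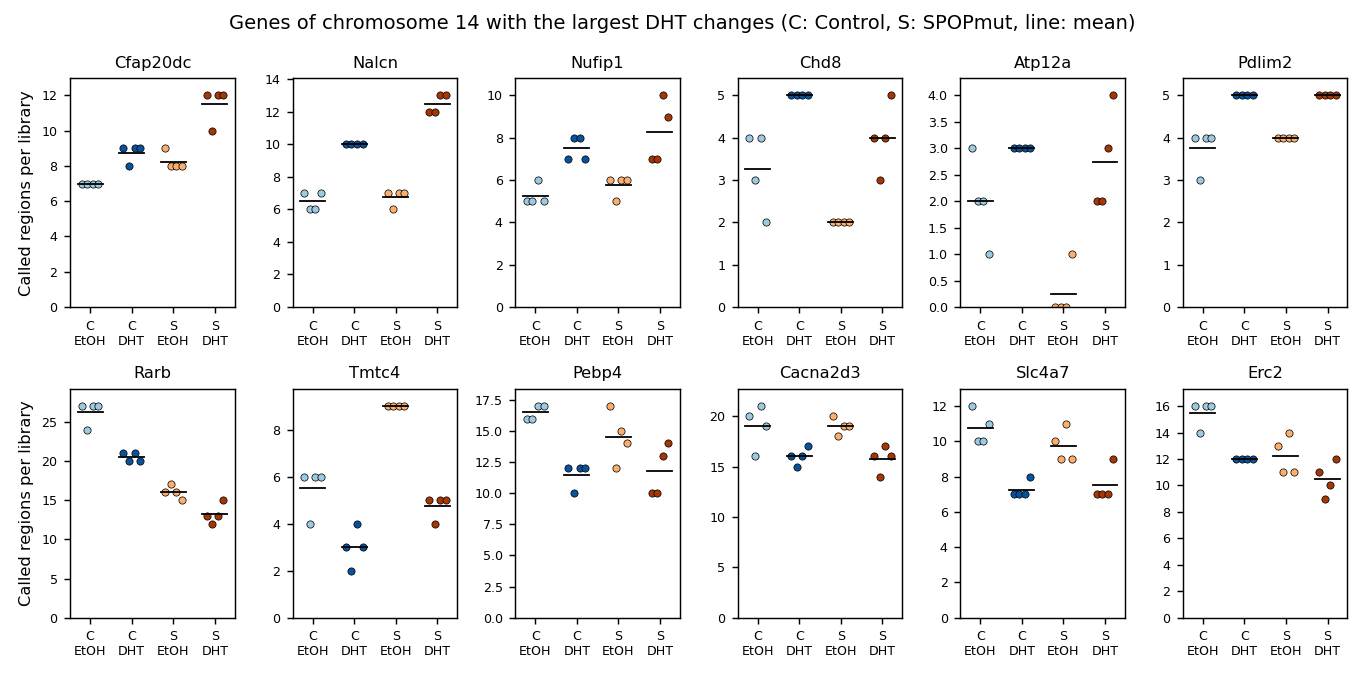
Called regions in each library with EtOH and with DHT for the named genes whose number changed with DHT, by genotype (C: Control, S: SPOPmut). Points are libraries and lines are group means (n = 4); Nalcn rises from 6 or 7 to between 10 and 13, and Rarb falls in both genotypes.

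In these DHT tests the Nalcn, Chd8 and Pebp4 calls held in all 8 alternatives run beside the replicate block, while each of the other 9 lost its call in at least 1. At Tmtc4 the change was 0 under both narrower assignments (exact permutation adjusted p = 1) and -0.625 with stronger peaks. Within 25 kb Nufip1, Atp12a and Slc4a7 changed by 0.625, 0.625 and -0.625 (each smaller in size than given above), and Cacna2d3 by -0.75 with the stricter overlap. Cfap20dc turned to -1.0 when only stronger peaks were used (exact permutation adjusted p = 0.419). Erc2 lost its call in 6 of 16 omissions of a single library, those of each Control DHT library, SPOPmut EtOH library 3 and SPOPmut DHT library 2 (adjusted p up to 0.0563, exact permutation test).

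Bins were tested for DHT as well. Of 23 bins of 5 Mb with at least 10 regions, 8 changed their share of called regions by an exact permutation test, 3 upward and 5 downward. That is a smaller part than the 42.8% of bins over the genome, so nothing particular to the chromosome is read from it. When treatment was permuted only within equal replicate numbers (the replicate block), 3 bins passed, 1 upward and 2 downward. The bins from 95000001 and 120000001 rose by 0.0101 and 0.00986 percentage points, and the bin from 15000001, which holds Rarb and Thrb, fell by 0.0134 percentage points (exact permutation adjusted p = 0.00437).

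Marker genes of cell types, on any chromosome, were counted too. The luminal and endothelial ranges did not overlap between genotypes, while the basal, stromal, immune and neuroendocrine ranges met or overlapped. The luminal list (6 genes, 5 of them called) had 37 to 42 called regions in Control libraries and 48 to 55 in SPOPmut ones, and the basal list (4 genes, all called) 39 to 50 and 42 to 48. The endothelial list (4 genes) had from 16 to 20 called in Control, in SPOPmut 9 to 13, the stromal list (4, with Col1a2 at 0) 6 to 9 and 4 to 6, the immune list (4) 4 to 9 and 8 to 11, and the neuroendocrine list (3) 3 or 4 and 2 to 4. Luminal and basal markers were thus present in all groups. Their part in the differences on chromosome 14 was not tested, nor was the part of whole-chromosome shifts in these counts. Lists held 57245 to 69644 peaks, the read depth is unknown, and intervals for counting error cannot be given.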

How the data were processed

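The submitters' processing notes name the build mm10, Bowtie2 2.3.4.1, SAMtools 1.8 and the peak caller Genrich (version not given in the sources used here). The lists deposited by the authors, 1 per library, give each peak a signal (smallest value 200.001, used for ranks) and a −log10 p, ranked in an alternative. They hold no read counts, so depth is unknown and values were ranked only within a list.

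Overlapping peaks were merged and genes taken from a RefSeq table of the same build, which gives no exons. The DHT tests are exact two-sided permutations of treatment within genotype (4900 arrangements), with Benjamini-Hochberg correction over all regions, bins, chromosomes or genes with at least 2 regions (threshold 0.05), run with SciPy 1.17.1, pandas 2.3.3 and NumPy 2.4.6 under Python 3.11.15 (figures: Matplotlib 3.10.9). The test of the difference between genotypes assumes no DHT effect in either. The scripts were tested on simulated data.

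Named genes are the 10 per direction with the largest genotype difference among those whose libraries do not overlap, runs of 3 or more neighbouring genes or regions higher in SPOPmut, the 6 per direction with the largest DHT change that passed, the 3 strongest lost and gained regions, the 3 per list with the largest difference, and a fixed set that includes Rb1, Rarb, Wnt5a, Zmiz1, Klf5, Msmb, Adam28, Lrmda and Bmp4. A few genes that this rule takes are not reported here. The regions, lists and this rule were chosen with earlier results of these data known. Alternatives varied the peak threshold, overlap, libraries required, list length, scaling, gene assignment, bin placement, rank column and the libraries used. The main tests do not pair libraries by replicate number, and whether equal numbers belong together is not known, as given in the closing section.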

Additional observations from a re-analysis of the deposited data

Results flagged for a closer look

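Of 44 sets of 4 libraries examined for a value far from the others, 3 held one, all in Control EtOH library 2. It called 24 regions at Rarb where the other 3 libraries of its group each called 27. At Diaph3 it called 5 where the others called 8, and at Lrmda 12 where the others called 16. The nominal rate of this rule, about 1 in 20, is for continuous values. It does not hold for these small whole numbers with ties, taken only from genes with a range of at least 3. How often chance marks such sets is therefore not known. The library had 53406 called regions, the fewest of the 16, where the other 3 of its group had 59353 to 60850. The part of this in the 3 values was not tested. Over omissions of single libraries, this one included, the SPOPmut minus Control difference was -9.12 to -8.54 at Rarb, -4.50 to -3.83 at Diaph3 and 7.42 to 8.75 at Lrmda.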

How the results depend on the processing

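The ratio of the chromosome 14 share was 0.845 averaged over treatments, 0.828 without the weakest peaks of each list, 0.777 when peaks had to cover more of a region and 0.858 over regions called in 4 or more libraries. Leaving out each library gave 0.844 to 0.848 and median rank shifts of -6.65 to -5.66. It gave 208 to 294 lost and 83 to 103 gained regions in EtOH, and 223 to 257 and 104 to 139 in DHT. An omission loosens the rule for lost and gained to the remaining libraries, so these counts could stay or rise but not fall. The number of genes changed by DHT (21) was 39 at equal list length (23 higher, 16 lower) and 60 as shares (34 and 26). The DHT change of the share ranged from -0.0497 to -0.0312 over omissions (exact permutation adjusted p from 0.0220 to 0.117), and its difference between genotypes turned to -0.0173 over regions called in 4 or more libraries (adjusted p = 0.794). Cfap20dc (-1.0 with DHT) and Nalcn (-0.375 between genotypes, under both narrower assignments) turned as given above. The cause of these changes was not tested. Over all alternatives and named genes, 1355 values kept their call or stayed within their spread, without turning. Another 39 lost the call without turning, among them Tmtc4 at 0 under both narrower assignments. A further 87 moved beyond their spread (Arf4 among them, across 0) and 3 turned.

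Whether equal replicate numbers mark libraries that belong together is not known. Over 8 pairs the correlation of deviations was -0.325 to 0.220, 3 correlated best with their own number and 3 exceeded 0.1. So few pairs do not decide the question. With a replicate block 0 regions, 0 genes and 3 bins passed. That design has few arrangements, so its smallest p passes correction only where a large number of regions or genes reach it, and too few did. Depth limits every call and is unknown.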
